A study of Rattus norvegicus with 12 samples.

Results

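A set of 36 genes of the lysosome was followed in rat calvaria (the flat bones over the brain) 72 h after surgery. The set holds soluble hydrolases and proteins of the lysosomal membrane, and was chosen by gene symbol. Probes of the array carried the symbol of 35 of the 36, all of them among the 22718 gene names tested, while Sgsh was not analysed here. The laser group had a defect of 8 by 3 mm cut by Er:YAG laser (infrared light that water in tissue absorbs), run at 20 Hz with 127 mJ per pulse. The bur group had a defect of that size drilled with a rotating bur. In the control group the periosteum, the membrane on the outer face of bone, was taken off with no ablation, per the treatment protocol, whereas the design text calls these bones non-treated. All rats were 10 weeks old, and each group had 4 Agilent arrays of 1 colour (Cy3), so the number of arrays limits the precision. No label ties a sample to an animal of its own, and the p-values therefore speak of the scatter among these samples, part or all of which may be technical.

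Lysosomes are acidic organelles in which hydrolases take apart proteins, glycans, lipids and nucleic acids delivered by endocytosis, phagocytosis and autophagy. Most soluble hydrolases reach them through a mannose phosphate tag and its receptors, and a proton pump, the V-ATPase, acidifies the lumen. Many lysosomal genes carry in their promoters an E-box element, known from human cells as the CLEAR motif, that is bound by the transcription factors TFEB, TFE3 and MITF. In bone, macrophages and osteoclasts are known for abundant lysosomes, and osteoclasts release lysosomal enzymes onto the bone surface.

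Promoter sequence, from 250 bases before to 50 after the start of each gene, was found in RefSeq (build GRCr8) for 30 of the 36 genes. Ctsb, Hexa, Arsa, Arsb, Asah1 and Psap were not among them. TCACGTG, searched on both strands, occurred in 7 of the 30 (23.3%) against 3.2% of all 33469 promoters, namely those of Cln3, Ctsd, Gaa, Glb1, Lamp1, Mcoln1 and Sgsh. The shorter CACGTG, which every TCACGTG contains, occurred in 8 (26.7%) against 6.42%, the added gene being Cd63. TCATGTG, a related element known as the M-box, occurred in 5 (16.7%) against 3.56%, those of Cd63, Ctss, Galns, Scarb2 and Tpp1. A match is a description of the letters and not a site of binding. Stretches of 120 bases upstream of the start are shown for 3 promoters with TCATGTG and 2 with TCACGTG, since the calls are counted by these elements further on. Capitals mark the matches on either strand, so that CACATGA and CACGTGA are the opposite strands of the elements.
Cd63 (chr7:1921971-1922090, plus strand): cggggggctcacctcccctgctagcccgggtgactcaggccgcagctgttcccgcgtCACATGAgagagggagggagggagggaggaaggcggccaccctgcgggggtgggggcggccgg
Scarb2 (chr14:15842415-15842534, plus strand): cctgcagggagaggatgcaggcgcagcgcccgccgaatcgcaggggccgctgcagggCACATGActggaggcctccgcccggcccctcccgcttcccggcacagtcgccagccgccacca
Tpp1 (chr1:169515940-169516059, minus strand): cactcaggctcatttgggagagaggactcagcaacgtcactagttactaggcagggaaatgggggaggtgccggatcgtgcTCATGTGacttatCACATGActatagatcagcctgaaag
Ctsd (chr1:206968822-206968941, minus strand): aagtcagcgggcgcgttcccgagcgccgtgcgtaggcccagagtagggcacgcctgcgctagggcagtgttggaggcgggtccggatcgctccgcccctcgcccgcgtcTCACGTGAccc
Lamp1 (chr16:83075103-83075222, minus strand): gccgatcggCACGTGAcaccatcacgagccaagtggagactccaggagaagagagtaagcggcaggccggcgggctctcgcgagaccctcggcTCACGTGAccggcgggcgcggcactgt

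Each value is the log2 signal of a gene's brightest probe relative to the 75th percentile of its array, so values can be compared between arrays for a gene and not between genes. On each array 58.1% to 67.0% of probes were well above background. Of the 35 measured lysosomal genes, 34 were well above background on all 12 arrays, and Galns was so on 11. All 10 bone marker genes, Bglap, Col1a1, Ibsp and Dmp1 among them, were well above background on all 12 arrays. All control arrays were on 1 slide scanned apart, and all laser and bur arrays on another, so for laser and for bur against control the slide, the scan and the group cannot be told apart. On the slide shared by laser and bur, the number after the slide code in the scanner headers was 2 for laser arrays and 1 for bur arrays. What that number stands for is not stated, and it cannot be told apart from the group either. The control arrays were also the most spread on the first principal component of all genes (49.5% of the variance), at 101.8, 55.46, 6.672 and 121.8 for replicates 1 to 4, against -47.72 to -7.426 for laser arrays and -53.11 to -16.03 for bur arrays. Control replicate 3 lay nearest to the arrays of ablated bone.

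Laser-ablated and bur-drilled bone were each compared with control bone to see what removal of bone changed. Genes higher in both comparisons were those of the cysteine proteases Lgmn, Ctsl, Ctsz and Ctsc, the acid ceramidase Asah1, the sulfatase Galns and the membrane proteins Cd63 and Scarb2. With laser, 8 of 35 lysosomal genes rose (22.9%), where 9.26% of all genes did, and 0 fell, where 13% of all genes did (limma, Benjamini-Hochberg adjusted p under 0.05). At an unadjusted p under 0.05 the count was 14, 1 of them lower, where 38.9% of all genes were past it. With bur, 12 of 35 rose (34.3%), where 9.99% of all genes did, and 1 fell (2.86%), where 16.2% of all genes did. The unadjusted count with bur was 19, where 41% of all genes were past it. In bulk tissue such as this, more cells of a type and more RNA per cell cannot be told apart.

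Changes that did not pass mostly pointed the same way. The change was above 0 for 32 of the 35 genes with laser and for 33 with bur, where 51.3% and 50% of all genes were above 0 in these comparisons. The median change of the lysosomal genes was 0.37 with laser and 0.45 with bur on the log2 scale. The median of all genes was 0.02 with laser and 0.00 with bur. The values of laser and control arrays did not overlap, with laser higher, for 9 lysosomal genes (25.7%), against 8.87% of all genes. For bur the number was 12 (34.3%), against 9.6% of all genes. None was lower without overlap in either comparison, where 10.1% of all genes were so with laser and 15.7% with bur.

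**Figure D1:**
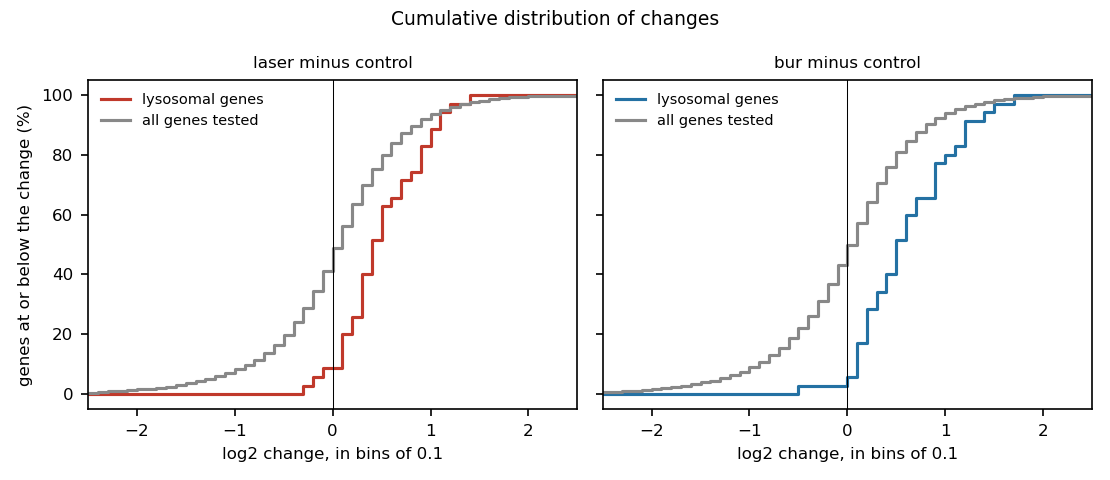
Cumulative share of genes (vertical axis, percent) at or below each log2 change (horizontal axis, bins of 0.1), for the 35 lysosomal genes in colour and all 22718 genes tested in grey. Left, laser minus control, and right, bur minus control. The coloured curves lie to the right of the grey ones over most of their course, with medians of 0.37 and 0.45, and the largest changes in either direction are found among other genes.

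The comparisons with laser and with bur share their 4 control arrays, so their likeness is not independent evidence. All 8 genes higher with laser were also higher with bur: Ctsc, Ctsl, Ctsz, Lgmn, Galns, Asah1, Scarb2 and Cd63. The 4 that passed with bur alone, in the fit without a block, were Ctss, Ctsd, Tpp1 and Npc2. Their changes with laser were 0.87, 0.64, 0.50 and 0.67 (limma adjusted p = 0.0648, 0.0779, 0.0699 and 0.0834), and none of them differed between laser and bur by the test of that difference.

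The laser count leaned on single arrays and on the fit. Without laser replicate 2, or without control replicate 1, limma called 0 lysosomal genes higher with laser. At an unadjusted p under 0.05, in either direction, the counts were 9 and 10. The share of all genes called higher then was 2.28% and 1.98%. The count, with the share of all genes called higher in brackets, was 1 without laser replicate 3 (2.33%) and 13 without control replicate 3 (17.0%). It was 2 without laser replicate 4 (4.56%) or control replicate 4 (3.66%). It was 0 in a fit on the laser and control arrays alone, where 2.87% of all genes were higher. In that fit 14 lysosomal genes were at an unadjusted p under 0.05. The share of all genes past that unadjusted limit is not given for these fits. The unadjusted counts of 9, 10 and 14 therefore do not set the lysosomal genes apart from all genes. In the main fit 14 of 35 lysosomal genes were past that limit, 1 of them lower, where 38.9% of all genes were. With the replicate number as a block 14 rose, those that were added being Ctss, Ctsa, Ctsd, Tpp1, Lipa and Npc2 (limma adjusted p = 0.016 to 0.0364), where 10.8% of all genes rose. The median change of the lysosomal genes with laser lay between 0.31 and 0.46 whichever array was left out. For bur too the share of all genes called higher moved with the array left out. The bur count was 6 without control replicate 1, 7 without control replicate 4 or bur replicate 2, and 15 at most.

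**Figure D2:**
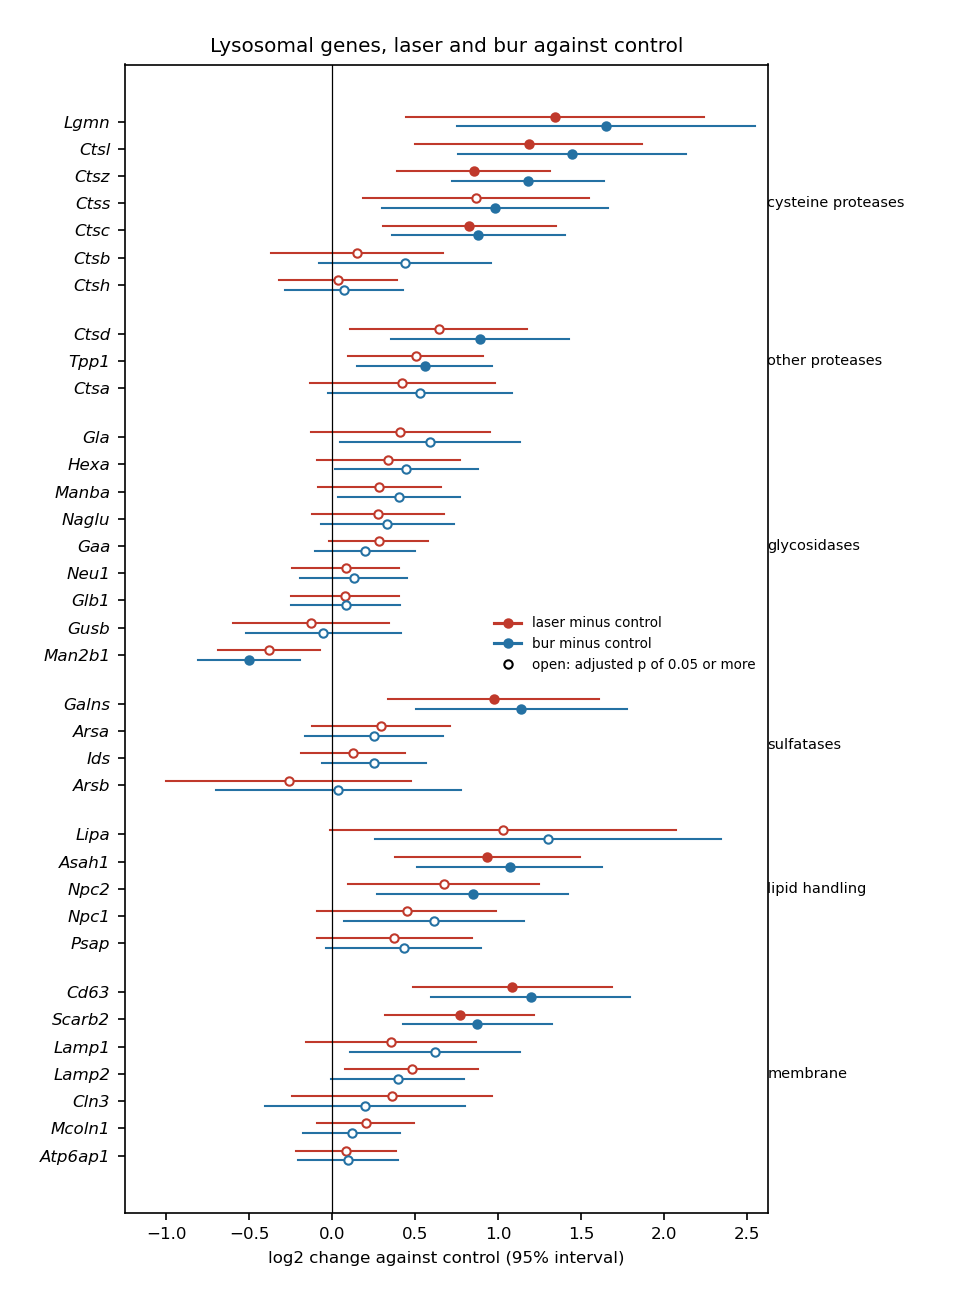
Log2 change of each of the 35 lysosomal genes (points, with 95% intervals from limma) in laser minus control (red) and bur minus control (blue), grouped by role and ordered within it by the change with bur. Filled points passed an adjusted p of 0.05, and open points did not. Lgmn, at 1.34 and 1.65, is at the top of the cysteine proteases, and Man2b1, at -0.38 and -0.50, is the lowest gene.

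Of the 7 cysteine proteases, 4 rose with laser and 5 with bur. Lgmn encodes legumain, which cuts after asparagine and activates other lysosomal proteases. Its signal was 2.25, 3.32, 2.60 and 2.13 on laser arrays, 3.03, 3.39, 3.04 and 2.05 on bur arrays, and 0.84, 1.97, 1.78 and 0.33 on control arrays (probe on chromosome 6 at 126669400 to 126669708, build rn4). Every laser and bur value lay above every control value, and control replicates 1 and 4 were far below the other controls. Legumain mRNA was 2.54-fold higher with laser (log2 change 1.34, SE 0.41, limma adjusted p = 0.0388) and 3.14-fold higher with bur (1.65, SE 0.41, limma adjusted p = 0.0167). Leaving out 1 array at a time, 7 of 12 refits lost the laser call and 1 lost the bur call, namely without control replicate 1 (limma adjusted p = 0.0521).

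Ctsl encodes cathepsin L, an endopeptidase of broad specificity. It had 3.47, 4.09, 3.38 and 3.65 on laser arrays, 4.01, 4.08, 3.95 and 3.60 on bur arrays, and 2.35, 3.04, 3.01 and 1.47 on control arrays (chromosome 17, 6293891 to 6293950, rn4). Laser and bur values overlapped each other and lay above all controls, with control replicate 4 the lowest array, and the gene rose by 1.18 with laser (SE 0.31, limma adjusted p = 0.0254) and by 1.44 with bur (SE 0.31, limma adjusted p = 0.0104). Ctsz encodes cathepsin Z, a carboxypeptidase. Its values were 0.26, 0.60, 0.36 and 0.74 on laser arrays, 0.76, 0.73, 0.98 and 0.79 on bur arrays, and -0.93, -0.35, 0.20 and -0.36 on control arrays. All ablated bones were above all controls, although control replicate 3 came close to laser replicate 1. The rise was 0.85 with laser (SE 0.21, limma adjusted p = 0.0212) and 1.18 with bur (SE 0.21, limma adjusted p = 0.00542), the smallest p among the lysosomal genes in each comparison.

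Ctsc encodes cathepsin C, a dipeptidyl peptidase that activates the granule serine proteases of leukocytes. It had 1.43, 2.16, 1.68 and 1.92 on laser arrays, 1.66, 2.04, 1.94 and 1.77 on bur arrays, and 0.63, 1.27, 1.51 and 0.49 on control arrays (chromosome 1, 144661657 to 144661716, rn4). Laser replicate 1 fell below control replicate 3, and the bur arrays were all above the controls. The rise was 0.83 with laser (SE 0.24, limma adjusted p = 0.0331) and 0.88 with bur (SE 0.24, limma adjusted p = 0.0222). Another probe of Ctsc also passed, at 0.73 with laser and 0.74 with bur, and a dim one did not, at 0.10 and 0.11. With the mean of these probes Ctsc no longer passed with laser (0.55, limma adjusted p = 0.0579).

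Ctss encodes cathepsin S, which processes the invariant chain in antigen-presenting cells. It stood at 2.58, 3.32, 2.54 and 2.51 on laser arrays, 3.25, 3.14, 2.96 and 2.06 on bur arrays, and 1.72, 2.34, 2.17 and 1.26 on control arrays (chromosome 2, 190466474 to 190466533, rn4). All laser values were above the controls, while bur replicate 4 was below 2 of them. Ctss rose by 0.98 with bur (SE 0.31, limma adjusted p = 0.0389), a call kept by 6 of 12 refits with 1 array left out. Ctsb, the gene of cathepsin B, changed by 0.15 with laser (interval -0.37 to 0.67) and by 0.44 with bur (-0.08 to 0.96). Ctsh, the gene of an aminopeptidase, changed by 0.04 with laser (-0.32 to 0.39) and by 0.07 with bur (-0.28 to 0.43), and neither gene passed.

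Of 3 other proteases limma called 0 with laser and 2 with bur, Ctsd and Tpp1. Those were also the 2 with an unadjusted p under 0.05 with laser, where 38.9% of all genes were past that limit. With the replicate block all 3 passed with laser (limma adjusted p = 0.0303 for Ctsa, 0.0321 for Ctsd and 0.0364 for Tpp1). Ctsd encodes cathepsin D, the main aspartic protease of lysosomes, and its promoter holds TCACGTG. It had 5.23, 5.93, 5.10 and 5.44 on laser arrays, 5.50, 5.95, 5.85 and 5.39 on bur arrays, and 4.50, 5.23, 5.08 and 4.33 on control arrays (chromosome 1, 202619669 to 202619727, rn4). Bur and control did not overlap, and laser replicates 1 and 3 lay below control replicate 2, replicate 1 only just. Ctsd rose by 0.89 with bur (SE 0.24, limma adjusted p = 0.0236). Tpp1, a tripeptidyl peptidase gene mutated in a childhood neuronal storage disease, had 0.61, 1.03, 0.48 and 0.72 on laser arrays, 0.49, 1.13, 0.70 and 0.74 on bur arrays, and -0.17, 0.34, 0.44 and 0.23 on control arrays (chromosome 1, 163490911 to 163490970, rn4). The lowest laser and bur values were just above control replicate 3. The rise with bur was 0.56 (SE 0.19, limma adjusted p = 0.0459), and 3 of 12 refits with 1 array left out kept the call. Ctsa, whose product protects the sialidase and galactosidase in a complex, changed by 0.42 with laser and 0.53 with bur and did not pass without the block. With the block Ctsa passed with bur too (limma adjusted p = 0.013).

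**Figure D3:**
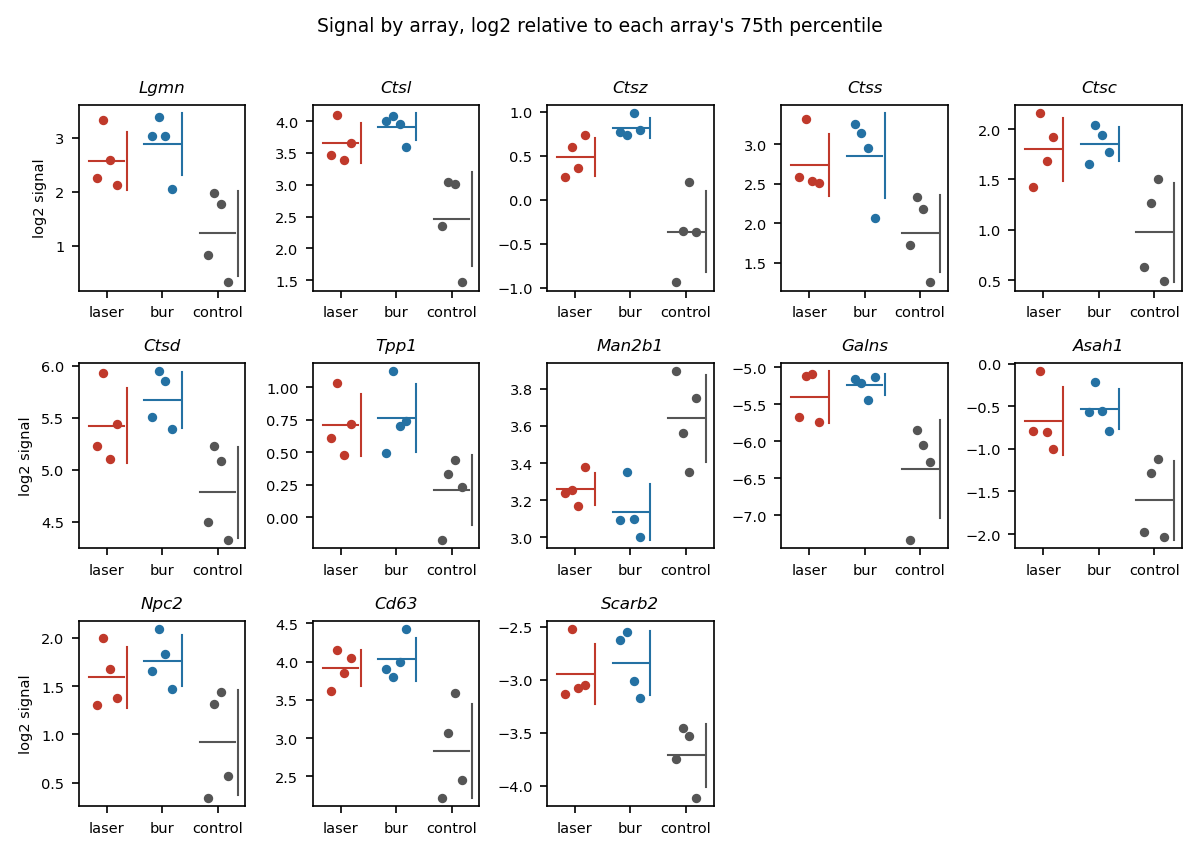
Log2 signal relative to each array's 75th percentile (vertical axes, each with its own range) for the 13 lysosomal genes that passed in at least 1 comparison, by group (4 arrays each). Points are arrays, horizontal lines are group means and vertical lines are 1 SD to either side. In 12 panels the control mean lies below the laser and bur means, and in the panel of Man2b1 above them. Single arrays of control and ablated bone overlap in the panels of Ctsc, Ctss, Ctsd, Npc2 and Man2b1.

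Among the 9 glycosidases limma called 0 higher in either comparison, and 1 fell, with bur. At an unadjusted p under 0.05 the count was 1 with laser (Man2b1, lower) and 4 with bur (Man2b1, lower, and Gla, Hexa and Manba, higher). Among all genes 38.9% were past that limit with laser and 41% with bur, so these counts do not set the glycosidases apart. Man2b1 encodes the lysosomal alpha-mannosidase, which trims glycans of glycoproteins. It had 3.24, 3.25, 3.17 and 3.38 on laser arrays, 3.10, 3.35, 3.10 and 3.00 on bur arrays, and 3.90, 3.56, 3.35 and 3.75 on control arrays (chromosome 19, 24711379 to 24711438, rn4). Control replicate 3 was the low control and lay within the range of the ablated bones. Man2b1 fell by 0.50 on the log2 scale with bur (SE 0.14, limma adjusted p = 0.0244), and changed by -0.38 with laser (SE 0.14, limma adjusted p = 0.0693). Of 12 refits with 1 array left out, 7 kept the fall with bur.

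The other 8 glycosidases ranged from -0.13 to 0.41 with laser and from -0.05 to 0.59 with bur. Gla, the gene of alpha-galactosidase A, changed by 0.41 with laser (interval -0.13 to 0.95) and 0.59 with bur (0.05 to 1.13, limma adjusted p = 0.0958). Hexa, the gene of a hexosaminidase subunit that degrades gangliosides, changed by 0.34 with laser and 0.45 with bur (limma adjusted p = 0.111). Manba, the beta-mannosidase gene, changed by 0.28 with laser and 0.40 with bur, where bur and control arrays did not overlap (limma adjusted p = 0.0969). Naglu, whose enzyme acts on heparan sulfate, changed by 0.28 with laser and 0.33 with bur, and a dimmer probe of it passed with bur (0.59, limma adjusted p = 0.0417). Gaa, which encodes the enzyme that frees glucose from glycogen, changed by 0.28 with laser and 0.20 with bur. Nearer to 0 were Neu1, a sialidase gene (0.08 with laser and 0.13 with bur), Glb1, the beta-galactosidase gene (0.08 and 0.08), and Gusb, the beta-glucuronidase gene (-0.13 and -0.05).

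Of 4 sulfatases 1 rose in both comparisons. Galns encodes the enzyme that removes sulfate from keratan sulfate and chondroitin sulfate, glycans of cartilage and bone matrix. It had -5.68, -5.12, -5.09 and -5.74 on laser arrays, -5.16, -5.21, -5.44 and -5.13 on bur arrays, and -7.33, -5.85, -6.05 and -6.27 on control arrays (chromosome 19, 52870739 to 52870798, rn4). These signals were dim, all ablated bones were above all controls, and control replicate 1 was far below the rest. Galns rose by 0.97 with laser (SE 0.29, limma adjusted p = 0.0362) and by 1.14 with bur (SE 0.29, limma adjusted p = 0.0179). With normexp background correction its change was 0.03 with laser and -0.10 with bur, neither of which passed. Arsa, which acts on sulfatides, changed by 0.29 with laser and 0.25 with bur, and a dimmer probe of it passed in both (0.64 and 0.61, limma adjusted p = 0.0376 and 0.0371). Ids, which acts on heparan and dermatan sulfate, changed by 0.13 with laser and 0.25 with bur, and Arsb, which acts on dermatan sulfate, by -0.26 and 0.04.

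Genes of lipid handling were all above 0, and 1 of 5 rose with laser and 2 with bur. Asah1 encodes acid ceramidase, which splits ceramide into sphingosine and a fatty acid. It had -0.79, -0.09, -0.80 and -0.998 on laser arrays, -0.57, -0.22, -0.56 and -0.79 on bur arrays, and -1.97, -1.28, -1.12 and -2.03 on control arrays (chromosome 16, 54310413 to 54310472, rn4). Laser and bur values overlapped each other and lay above all controls, with laser replicate 2 and bur replicate 2 the highest arrays. The rise was 0.93 with laser (SE 0.25, limma adjusted p = 0.0278) and 1.07 with bur (SE 0.25, limma adjusted p = 0.0142). Npc2 encodes a soluble protein that binds cholesterol and passes it to the membrane protein Npc1. It had 1.30, 2.00, 1.68 and 1.38 on laser arrays, 1.66, 2.09, 1.83 and 1.47 on bur arrays, and 0.34, 1.32, 1.44 and 0.57 on control arrays (chromosome 6, 108794590 to 108798310, rn4). Bur values were above all controls, while laser replicates 1 and 4 lay below control replicate 3. Npc2 rose by 0.85 with bur (SE 0.26, limma adjusted p = 0.0363).

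Lipa encodes acid lipase, which frees cholesterol and fatty acids from lipoprotein lipids. It had 0.82, 2.16, 0.98 and 0.53 on laser arrays, 1.36, 2.18, 1.56 and 0.49 on bur arrays, and -0.76, 0.97, 0.60 and -0.43 on control arrays (chromosome 1, 238467200 to 238467259, rn4). The spread within groups was the widest of the lysosomal genes, and the groups overlapped. Its change was 1.03 with laser (SE 0.48, limma adjusted p = 0.134) and 1.30 with bur (SE 0.48, limma adjusted p = 0.0627), neither of which passed. With the replicate block the adjusted p of Lipa in limma was 0.016 with laser and 0.00643 with bur. Npc1 changed by 0.45 with laser and 0.61 with bur, and Psap, the precursor of the saposins that present lipids to hydrolases, by 0.37 and 0.43. Neither passed without the block, and with it both passed with bur (limma adjusted p = 0.031 for Npc1 and 0.033 for Psap). With normexp Lipa and Npc1 passed with bur as well (limma adjusted p = 0.0258 and 0.0279).

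Of 7 membrane genes, 2 rose in both comparisons. Cd63 encodes a tetraspanin of late endosomes and lysosomes, and it had 3.62, 4.15, 3.86 and 4.05 on laser arrays, 3.90, 3.79, 3.99 and 4.43 on bur arrays, and 2.22, 3.07, 3.59 and 2.46 on control arrays (chromosome 7, 2210440 to 2210499, rn4). All ablated bones were above all controls, though control replicate 3 came close to laser replicate 1. Cd63 rose by 1.08 with laser (SE 0.27, limma adjusted p = 0.0227) and by 1.20 with bur (SE 0.27, limma adjusted p = 0.0125). Scarb2 encodes the receptor that carries beta-glucocerebrosidase to lysosomes. It had -3.13, -2.52, -3.08 and -3.05 on laser arrays, -2.62, -2.55, -3.01 and -3.17 on bur arrays, and -3.75, -3.45, -3.53 and -4.12 on control arrays (chromosome 14, 17168802 to 17168861, rn4). Every ablated bone was above every control, and laser replicate 2 stood apart from the other laser arrays. The rise was 0.77 with laser (SE 0.21, limma adjusted p = 0.0262) and 0.87 with bur (SE 0.21, limma adjusted p = 0.0137), and with normexp the laser change was 0.35 and did not pass.

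The heavily glycosylated membrane proteins Lamp1 and Lamp2, which line the inner face of the lysosome, did not pass on their brightest probes in the main fit. Lamp1 changed by 0.36 with laser and 0.62 with bur (limma adjusted p = 0.279 and 0.0698). With the replicate block Lamp1 passed with bur (limma adjusted p = 0.023). Lamp2 changed by 0.48 with laser and 0.39 with bur (limma adjusted p = 0.078 and 0.127). A dimmer probe of Lamp2 passed in both comparisons, at 0.94 with laser and 1.14 with bur (limma adjusted p = 0.0208 and 0.00823). The mean of its probes passed too, at 0.71 with laser and 0.77 with bur. Cln3, a membrane protein gene mutated in juvenile neuronal storage disease, changed by 0.36 with laser and 0.20 with bur, with control replicate 3 at -5.30 and the other controls at -4.15 to -3.85. Mcoln1, the gene of a calcium channel of lysosomes, changed by 0.20 with laser and 0.12 with bur, and Atp6ap1, an accessory protein of the V-ATPase, by 0.08 and 0.09.

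Read against the promoters printed earlier, the calls were counted for genes with and without each element. Among all genes 9.26% rose with laser and 9.99% with bur. Of the 6 measured genes with TCACGTG, 0 rose with laser and 1 with bur, which was Ctsd. Of the 23 measured genes with a promoter and no TCACGTG, 7 rose with laser and 10 with bur. Of the 5 genes with TCATGTG, 3 rose with laser (Cd63, Galns and Scarb2) and 5 with bur, the added ones being Ctss and Tpp1. Of the 24 without it, 4 rose with laser and 6 with bur. These counts are small, no test was made of them, and the elements were looked for after calls on these arrays were known.

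Laser-ablated and bur-drilled bone were compared with each other to see whether the tool made a difference. Limma called 0 of 35 lysosomal genes, and 0 of all 22718 genes (0%). At an unadjusted p under 0.05 there were 0 lysosomal genes, against 2.53% of all genes. The changes of the lysosomal genes, laser minus bur, ran from -0.33 (Ctsz) to 0.16 (Cln3), with a median of -0.11, against 0.02 for all genes. For 29 of 35 the change was below 0, and for all genes it was above 0 in 54.1%. The 95% intervals of single genes reached from -1.32 to 0.77, the lower bound being that of Lipa and the upper that of Cln3, so differences up to these bounds were not excluded for those genes. For Lgmn the interval was -1.20 to 0.59, for Ctsl -0.95 to 0.42, for Ctsz -0.79 to 0.13 and for Cd63 -0.71 to 0.49. No lysosomal gene had laser and bur arrays apart from each other, where 1.57% of all genes were higher and 0.581% lower without overlap. Without bur replicate 2 the number of genes below 0 was 22, and without laser replicate 2 it was 30.

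The authors' deposited tables of comparisons were read beside these fits. In the authors' deposited table for laser against control 16 of the 35 genes were higher and 0 lower at an adjusted p under 0.05, and in that for bur against control 21 were higher and 1, Man2b1, lower. In the authors' deposited table for laser against bur no lysosomal gene passed. The share of all lines that passed in these tables was not counted. Their counts therefore cannot be set against the shares of all genes given for the fits here. The p-values in the authors' deposited tables were matched within 1% on all 23269 lines by a limma fit to the deposited log2 values with the replicate number as a block. Without the block 1909 lines matched for laser against control and 1914 for bur against control.

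Other genes of lysosome function were read from lists, given as counts against the 9.26% of all genes higher with laser and the 9.99% with bur. The shares of all genes lower were 13% with laser and 16.2% with bur. Of 28 other hydrolases and cofactors 4 rose and 1 fell with laser, and 11 rose and 2 fell with bur. Those higher with laser included Prcp, a carboxypeptidase gene (0.82), and Dnase2, the gene of the acid nuclease that digests DNA of engulfed cells (0.73), while Siae, a sialate esterase gene, fell by 0.62. Those higher with bur included Acp2, the gene of lysosomal acid phosphatase (1.07), and Dnase2 (0.82). Of 23 other membrane proteins 3 rose with laser and 5 with bur. Slc11a1, a metal ion transporter gene of phagocytes, rose by 1.38 with bur, and Laptm4a rose by 0.78 with laser and 0.81 with bur. Mcoln2, a channel gene related to Mcoln1, was well above background on 0 of 4 control arrays. It was so on 2 of 4 laser arrays and 4 of 4 bur arrays. Its signal with laser was at least 2.46-fold higher than in controls, and with bur at least 2.86-fold higher. It passed the filter on low values only through the ablated bones, so its place among the genes counted as higher supports nothing.

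**Figure D4:**
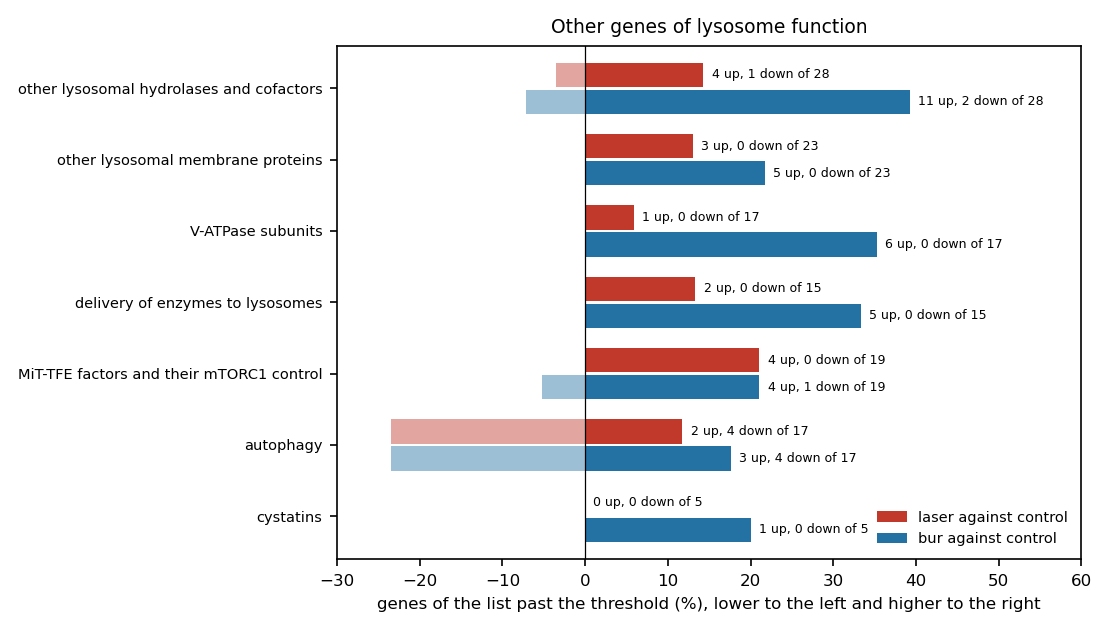
Percent of each list of other lysosome-related genes past an adjusted p of 0.05 (limma), higher to the right in full colour and lower to the left in pale colour, for laser (red) and bur (blue) against control. The labels give the counts and the number of genes measured. The V-ATPase list has 1 of 17 higher with laser and 6 of 17 with bur. Autophagy is the list with most genes lower, 4 of 17 in each comparison. Among all genes 13% were lower with laser and 16.2% with bur.

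Of 17 V-ATPase subunits 1 rose with laser, Atp6v1f at 0.77, and 6 rose with bur. Those 6 included Atp6v1f (1.01), Tcirg1, the gene of the subunit that osteoclasts use to acidify the resorption pit (0.90), Atp6v1d (0.75) and Atp6v1b2 (0.71). Of 15 genes that deliver enzymes to lysosomes 2 rose with laser, Vps35, a retromer subunit gene (0.82), and Nagpa, the gene of the enzyme that uncovers the mannose phosphate tag (0.48). With bur 5 rose, with Vps35 at 0.91, the adaptor gene Gga2 at 0.72, the mannose phosphate receptor gene M6pr at 0.56 and Nagpa at 0.44. None of the V-ATPase or delivery genes differed between laser and bur in limma.

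Of 19 genes of the MiT-TFE transcription factors and the mTORC1 complex that controls them, 4 rose with laser and 4 rose and 1 fell with bur. Lamtor1, which anchors the Ragulator complex to the lysosome, rose by 0.82 with laser (SE 0.15, limma adjusted p = 0.00804) and by 0.93 with bur (SE 0.15, limma adjusted p = 0.00349). Tfeb, the gene of a main activator of lysosomal genes, rose by 0.67 with laser and 0.68 with bur. Lamtor3 rose by 0.66 with laser and 0.88 with bur, and Rraga, a Rag GTPase gene, by 0.61 with laser. Mitf fell by 0.66 with bur. Of 17 autophagy genes 2 rose and 4 fell with laser, and 3 rose and 4 fell with bur. Among all genes 9.26% rose and 13% fell with laser, and 9.99% rose and 16.2% fell with bur. Gabarap rose by 0.88 with laser and 0.96 with bur, and Optn, the gene of an autophagy receptor, fell by 0.87 with laser and by 1.02 with bur. None of 5 cystatins, inhibitors of the cysteine proteases, passed with laser, where Cstb was at 0.67 (limma adjusted p = 0.0611), and Cstb rose by 0.79 with bur.

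Markers of macrophages moved with the lysosomal genes from array to array. Of 14 measured macrophage markers 3 rose with laser, where 9.26% of all genes did (Trem2 at 2.29, Cd14 at 1.79 and Msr1 at 1.59). With bur 6 rose, where 9.99% of all genes did, with Trem2 at 2.40, Cd14 at 2.03, Msr1 at 1.82 and Adgre1 at 1.22. In both comparisons 0 fell, where 13% of all genes did with laser and 16.2% with bur. Cd163 was at -0.73 with laser and -0.76 with bur and did not pass. All 14 were well above background on every array. Their summed linear signal, in units of the array's 75th percentile, was 77.4 to 108 on laser arrays, 82.2 to 113 on bur arrays and 61.5 to 73.9 on control arrays, without overlap. The mean deviation of the macrophage markers from the mean of 12 arrays was 0.06, 0.57, 0.06 and 0.08 on laser arrays, 0.40, 0.72, 0.28 and -0.11 on bur arrays, and -0.65, -0.26, -0.29 and -0.86 on control arrays. For the lysosomal genes it was -0.01, 0.37, 0.01 and 0.09 on laser arrays, 0.14, 0.38, 0.29 and 0.08 on bur arrays, and -0.52, -0.13, -0.09 and -0.62 on control arrays. Bur replicate 2 and laser replicate 2 were the highest arrays by both measures, and control replicates 4 and 1 the lowest. The part of macrophages in the change of the lysosomal genes was not tested.

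**Figure D5:**
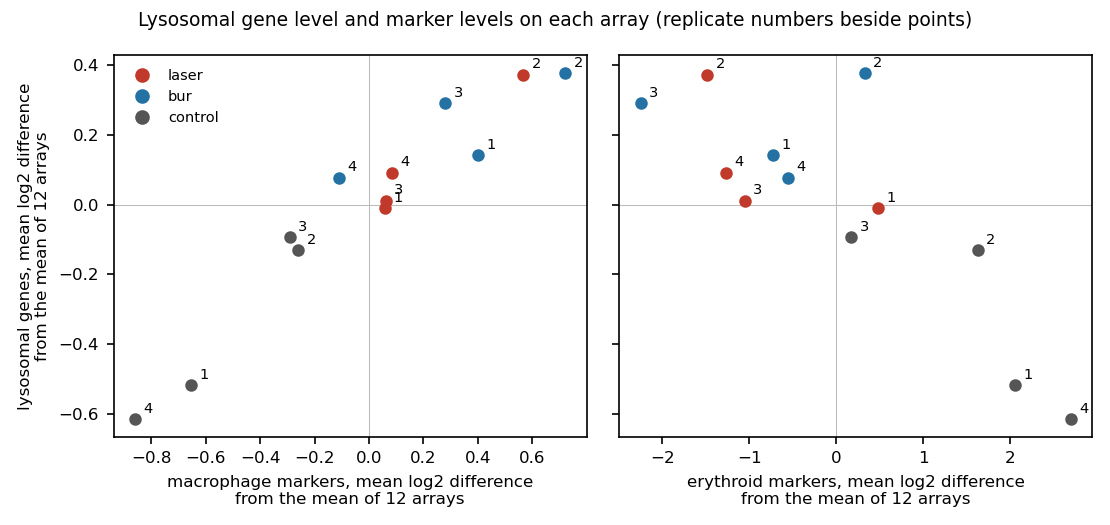
Mean log2 deviation of the 35 lysosomal genes from the mean of 12 arrays (vertical axis) against that of 14 macrophage markers (left) and 10 erythroid markers (right), each point an array with its replicate number. Control replicates 1 and 4, at -0.52 and -0.62 for the lysosomal genes, are lowest for macrophage markers and highest for erythroid markers.

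Of 11 measured osteoclast markers, 1 rose with laser, where 9.26% of all genes did, namely Tnfrsf11a, the receptor gene for RANKL (1.48), and 2 rose with bur, where 9.99% of all genes did, namely Tnfrsf11a (1.48) and Tcirg1 (0.90). Their summed signal overlapped between groups, at 52.1 to 117 on laser arrays, 60.2 to 155 on bur arrays and 44.4 to 123 on control arrays. The resorption protease gene Ctsk changed by -0.07 with laser and 0.17 with bur, and Acp5, the gene of the tartrate-resistant phosphatase, by -0.10 and 0.42, and neither passed. Dcstamp was well above background on 3 laser, 4 bur and 2 control arrays.

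Markers of marrow and fat cells were counted against the 13% of all genes lower with laser and the 16.2% lower with bur. All 10 erythroid markers fell in both comparisons, with a summed signal of 17.9 to 67.5 on laser arrays, 10.8 to 60.1 on bur arrays and 57.7 to 298 on control arrays. Of 11 neutrophil markers 6 fell with laser and 5 with bur, of 8 B cell markers 3 and 4, of 8 mast cell markers 8 and 7, and of 7 adipocyte markers 5 and 5. Of 10 bone markers 5 rose with laser, where 9.26% of all genes did, and 0 passed with bur, where 9.99% of all genes rose. Between laser and bur limma called 0 of the 10 bone markers, and all 10 changes were above 0. Of 7 skeletal muscle markers 0 passed in either comparison with control (limma), and replicate 1 of each group stood apart. Their summed signal was 5.83 on control replicate 1 and 0.52 to 0.73 on the other controls. It was 3.98 on bur replicate 1 and 0.41 to 0.52 on the other bur arrays. On laser replicate 1 it was 1.46, and on the other laser arrays 0.42 to 0.48. The part of these cell types in the values of the lysosomal genes was not tested.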

How the data were processed

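RNA of 12 calvaria samples was hybridised to Agilent arrays of 1 colour from 200 ng of total RNA, per the labels' protocols. The deposited scanner files hold spot intensity on a linear scale from Agilent Feature Extraction 11.0.1.1, per the submitters' processing notes. Per the file headers it was background-subtracted and detrended within each array, with probe positions on rn4. A table of log2 values deposited by the authors carries the word quantile in its name. Their deposited comparison tables give p-values and log2 changes, and no source used here states how either was made.

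For each array the processed intensity was put on the log2 scale and the log2 of its 75th percentile, taken over spots that are not controls, was subtracted. Outlier spots as marked by the scanner software were left out, spots of a probe averaged, and probes kept if well above background on at least 4 of 12 arrays. Of the kept probes of a gene name the brightest was used, which left 22718 genes. No spot was saturated. Limma 3.58.1 in R 4.3.3 (lmFit, eBayes, group means, two-sided) was fitted to all 12 arrays, with Benjamini-Hochberg adjustment over all genes, a threshold of 0.05 and 95% intervals, and was tested on simulated data. A gene below background on a whole group is given as a bound, against the lowest signal of probes well above background.

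The members, the gene lists and the tests were chosen with earlier results of these data known. All 36 members could be named, and from each list, per comparison, the 4 passing genes that changed most, and where no gene passed the one of smallest p. Some genes that this rule names are not reported here. Ctsk, Acp5, Dcstamp, Cd163 and the genes named as examples of bone markers fall outside this rule and were chosen after their values were seen.

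Whether replicate numbers pair the samples was checked by correlating, after subtraction of the group means, arrays that carry the same number. The correlation was 0.336, 0.178, 0.225 and 0.126 between laser and control and 0.246, 0.236, 0.158 and 0.341 between laser and bur, and -0.05 to 0.284 between bur and control. By a limit of 0.1 for every pair, laser passed with control and with bur, and bur did not pass with control. Pairing laser by number with both would also pair bur with control, so the check did not settle the pairing. The main fit held group means only and used no pairing, and the replicate block was run as an alternative. Arrays with different numbers reached 0.125 between laser and control, 0.143 between laser and bur and 0.321 between bur and control. Alternatives were another background correction, normalization, filter, probe rule, fit and source of values, and leaving out each array. Protein sequences were not analysed here.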

Additional observations from a re-analysis of the deposited data

Results flagged for a closer look

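Each lysosomal gene was checked for an array standing far from the other 3 of its group, by Dixon's criterion. Chance flags about 1 in 20 groups, and 4 of 105 groups were found. Ctss on laser replicate 2 was at 3.323, against 2.513 to 2.58 on the other laser arrays. Scarb2 on the same array was at -2.52, against -3.132 to -3.048. Gaa on laser replicate 1 was at -1.039, against -0.823 to -0.7977 on the others. Lamp2 on bur replicate 4 was at 2.416, against 2.728 to 2.752 on the other bur arrays. No lysosomal gene differed between the effect of laser and that of bur by limma's test of the difference.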

How the results depend on the processing

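The medians of the lysosomal genes kept their sign under all 10 other settings and all 12 refits without 1 array, at 0.28 to 0.46 for laser, 0.34 to 0.56 for bur and -0.18 to -0.03 for laser minus bur. The counts of calls moved more, as did the share of all genes called higher. That share was 2.87% to 15.6% for laser under other settings and 1.98% to 17.0% without 1 array. For bur it was 6.04% to 16.0% under other settings and 3.86% to 16.7% without 1 array. The next counts are of lysosomal genes. For laser, genes higher numbered 5 with no detection filter, 0 with only the 2 groups in the fit and 14 with the replicate block, and 0 to 13 without 1 array, while genes lower numbered 1 with array weights and 0 to 1 without 1 array. For bur, genes higher numbered 9 to 17 under other settings (17 with the replicate block and with normexp) and 6 to 15 without 1 array, and genes lower 0 with only the 2 groups and 0 to 1 without 1 array. The replicate block changed no call between laser and bur, where limma called 0 lysosomal genes under all settings run. Normexp moved the median of all genes to -0.08 for laser and -0.24 for bur, and the share of all genes lower with bur to 27.8%. Changes near 0 crossed it. With array weights these were Ctsb (-0.0738) and Atp6ap1 (-0.0171) for laser, and Glb1 (-0.0157), Cln3 (-0.11) and Mcoln1 (-0.0065) for bur. With normexp they were Cln3 (-0.0239) for laser, and Galns (-0.10) and Cln3 (-0.21) for bur. Gusb was at 0.015 for bur with the percentile over detected probes, and Arsb at -0.0296 with the deposited log2 table and -0.0107 with quantile normalization. Without 1 array, changes with laser spanned 0 for Ctsb (-0.0145 to 0.28), Ctsh (-0.0701 to 0.16), Glb1 (-0.028 to 0.12), Neu1 (-0.0236 to 0.21) and Atp6ap1 (-0.0199 to 0.14). With bur they did so for Ctsh (-0.00035 to 0.16), Gusb (-0.18 to 0.076), Glb1 (-0.0227 to 0.16), Arsb (-0.15 to 0.18), Cln3 (-0.14 to 0.35) and Atp6ap1 (-0.0073 to 0.15). The cause of these shifts was not tested. Among single genes 95 alternative values lost a call and 44 gained one, against 1370 on the same side. Those 1370 include values of genes that had no call to lose, so they do not measure how stable the calls were. With 1 array left out, laser calls were kept in 5 (Lgmn) to 9 (Ctsz) of 12 refits. Bur calls were kept in 3 (Tpp1) to 12 of 12, the latter for Ctsl and Ctsz among others. Signal over background limits Galns, which was well above it on 11 of 12 arrays.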
